A study of Mus musculus with 12 samples.

Results

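Adipocyte genes were followed tumor by tumor in subcutaneous lung tumors of mice given a CDK4/6 inhibitor, an antibody to PD-1 or both agents. The set held 10 genes of the 34678 gene symbols measured. Adipoq, Plin1, Plin4, Cidec, Lep and Retn formed an adipocyte-only group of 6, Fabp4, Lpl and Cfd are also made by other cells, and Ucp1 marks brown fat. The members were selected on their FPKM values (levels per gene length and sequencing depth) in these same tumors, so these levels are given as a description and no test is attached to them. Each gene was found by its symbol.

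Bulk RNA-sequencing was performed on 12 tumors, 3 in each of 4 arms. Every tumor grew from Lewis lung cancer cells carrying a knockdown of Lkb1 (LLC1-shLkb1), a mouse lung cancer line, placed under the skin of C57BL/6 mice 5 to 8 weeks old. The vehicle arm received control immunoglobulin G. The palbociclib arm received the CDK4/6 inhibitor by mouth at 100 mg/kg, the anti-PD-1 arm received 200 µg of antibody per mouse into the peritoneum, and the combination arm (labelled anti-PD-1+Palbociclib) received both. Collection followed 2 weeks of treatment by the study's methods, which state this time for tumors used in cell isolation and staining. The study asked whether CDK4/6 inhibition makes such tumors respond to anti-PD-1. No arm had unaltered Lkb1 and no arm was free of tumor, and nothing in the sources used here says how much skin or fat was taken with each tumor.

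A white adipocyte stores triglyceride in a single large droplet. Perilipins and Cidec coat and enlarge this droplet, lipoprotein lipase and Fabp4 bring fatty acids to it, and the cell secretes adiponectin, leptin, resistin and adipsin into the blood. Brown adipocytes instead burn fat through Ucp1, and subcutaneous tumors grow next to a natural fat layer. PPARG and the CCAAT/enhancer-binding proteins are the transcription factors that switch these genes on when a precursor becomes a fat cell.

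The sequence just before an annotated RefSeq start is shown for 4 adipocyte-only members. The 6 genes of that group were high in the same tumors, and these factors are known to act on such genes. RefSeq promoters (GRCm38.p6) were at hand for 8 members, 9 promoters in all because Cidec has more than 1 start. Each was searched from 250 bases before to 50 bases after the start, on both strands, for the letters TTNNGCAA (TTGCNNAA on the other strand), a loose form of the CCAAT/enhancer-binding protein motif. The letters occurred in 3 of the 9 member promoters, those of Lep, Plin1 and 1 of Cidec, and in 10.8% of all 32851 promoters of this length. The 250 bases before the start are printed 5′ to 3′ along the gene's own strand, with matches in capitals. They lie at chr6:29059971-29060220 (plus strand) for Lep, chr7:79732777-79733026 (minus) for Plin1, chr6:113434765-113435014 (minus) for the Cidec start with a match and chr16:23146286-23146535 (plus) for Adipoq, which held no match. The Cidec stretch lies inside the gene's GENCODE span, and the promoter at the outer end of Cidec (chr6:113435761-113436010) held no match. The Plin1 stretch lies partly inside the span of its gene.
Lep: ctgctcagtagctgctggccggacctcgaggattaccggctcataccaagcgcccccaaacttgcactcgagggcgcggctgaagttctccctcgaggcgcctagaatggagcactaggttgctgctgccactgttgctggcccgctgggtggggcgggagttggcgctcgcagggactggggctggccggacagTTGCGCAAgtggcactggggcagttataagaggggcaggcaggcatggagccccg
Plin1: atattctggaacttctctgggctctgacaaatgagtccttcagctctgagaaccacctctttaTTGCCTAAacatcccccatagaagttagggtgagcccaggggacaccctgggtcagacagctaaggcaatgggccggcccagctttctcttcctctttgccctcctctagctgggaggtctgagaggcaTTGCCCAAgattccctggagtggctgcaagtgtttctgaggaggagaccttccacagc
Cidec: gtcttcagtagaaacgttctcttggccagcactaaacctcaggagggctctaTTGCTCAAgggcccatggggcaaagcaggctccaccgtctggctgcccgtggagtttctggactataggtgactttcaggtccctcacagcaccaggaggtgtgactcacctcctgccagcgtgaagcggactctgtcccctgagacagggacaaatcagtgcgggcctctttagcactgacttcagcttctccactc
Adipoq: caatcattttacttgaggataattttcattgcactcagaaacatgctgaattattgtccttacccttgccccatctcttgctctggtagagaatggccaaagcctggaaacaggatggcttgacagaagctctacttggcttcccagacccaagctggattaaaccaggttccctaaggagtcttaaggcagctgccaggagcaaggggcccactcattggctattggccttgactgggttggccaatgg

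The Lep match, 55 to 48 bases before the start, read TTGCGCAA, the same on both strands, which occurred in 60 of all promoters (0.183%). Plin1 held a match at 187 to 180 bases and another at 58 to 51 bases before its start, and Cidec held its match at 198 to 191 bases. The direct repeat bound by PPAR with RXR, sought by its letters on both strands, occurred in 0 of the 9 member promoters and in 0.381% of all promoters. A match is a run of letters and not a measured binding site.

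The 10 genes are protein-coding and lie apart in the mouse genome (GRCm38, GENCODE M21). Among the hormones, Adipoq lies at chr16:23146536-23158028, Lep at chr6:29060220-29073877 and Retn at chr8:3655770-3660110. The droplet genes Plin1, Plin4 and Cidec lie at chr7:79720218-79732903, chr17:56100591-56109803 and chr6:113424634-113435760. Fabp4 lies at chr3:10204088-10208576, Lpl at chr8:68880491-68907448, Cfd at chr10:79890853-79892655 and Ucp1 at chr8:83290352-83298452. Of the 10, only Plin4 overlaps another annotated gene.

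Depth was similar over the tumors. From the steps between low values, an estimated 14900000 to 20300000 fragments per tumor were counted, and 17318 to 18499 genes were above 0. Genes that every cell uses were not at 0 in any tumor (0 of 10 checked), so an entry of 0 was taken as no fragment seen. At this depth 3 fragments, the number that a count of 0 allows, correspond to 0.107 to 0.146 FPKM (fragments scaled by transcript length and by library size) for Adipoq. Stk11, the gene encoding Lkb1, stood at 7.90 to 11.5 FPKM, and with no tumor of unaltered Lkb1 the knockdown could not be checked. Markers of epithelial tumor cells (Krt8, Krt18, Krt7, Krt19 and Epcam) summed to 73.0 to 282 FPKM. This sum was carried by Krt8, at 62.0 to 276 FPKM. None of the others exceeded 5.08 FPKM (Krt18 in combination replicate 1), and Krt19 was at 0 in 4 tumors.

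All 6 adipocyte-only genes were near or at 0 in the 6 tumors without palbociclib and reached their highest levels in palbociclib replicate 1 and combination replicate 1. Of their 36 values in tumors without palbociclib, 12 were above 0, with a highest value of 0.229 FPKM. Their summed level was 191 FPKM in combination replicate 1 and 75.8 FPKM in palbociclib replicate 1. It was 5.77 FPKM in palbociclib replicate 3, 2.75 FPKM in combination replicate 2 and 2.34 FPKM in palbociclib replicate 2, against at most 0.381 FPKM in any tumor without the drug. In each arm the highest sum was that of replicate 1 (0.130 FPKM in vehicle and 0.381 FPKM in anti-PD-1). Combination replicate 3 stood apart from its arm, with 0.0134 FPKM in all and 1 of the 6 genes above 0. In these bulk samples, fewer adipocytes and less of each RNA per adipocyte cannot be told apart.

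**Figure D1:**
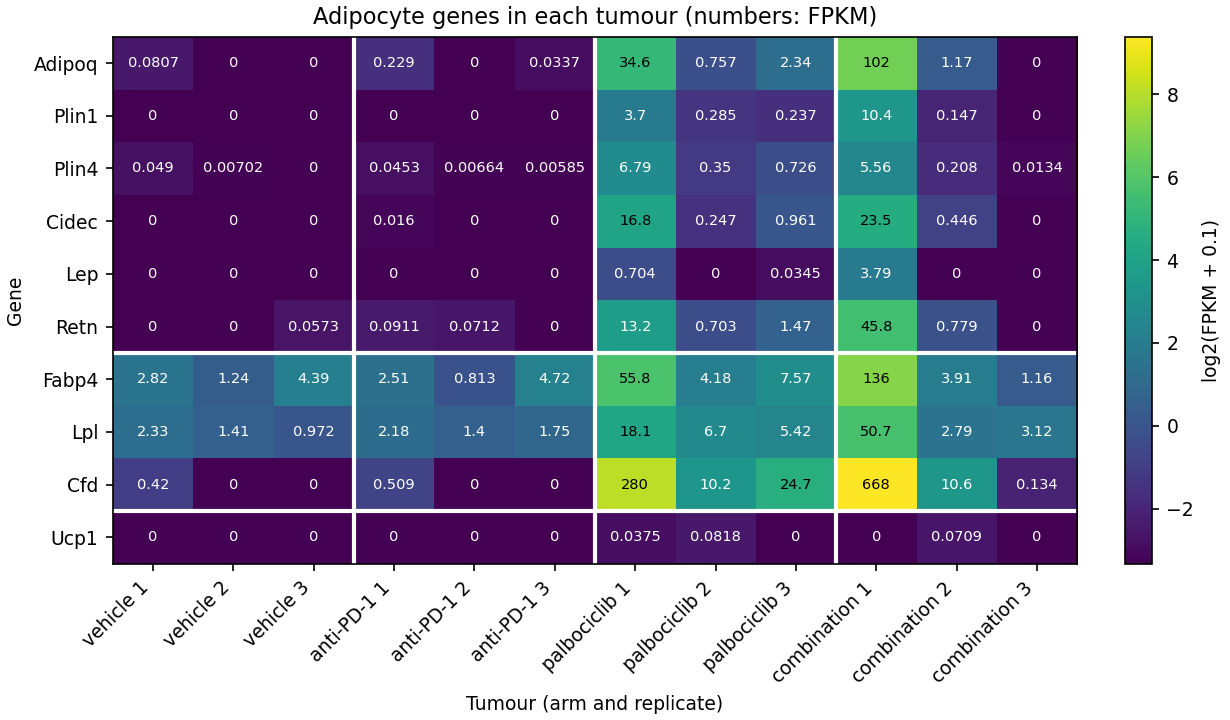
Level of the 10 adipocyte genes (rows) in each of the 12 tumors (columns, by arm), colored by log2(FPKM + 0.1) with the FPKM written in each cell. Combination replicate 1 and palbociclib replicate 1 hold the highest levels of 9 of the 10 genes, and combination replicate 3 resembles the tumors without palbociclib.

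Adipoq encodes adiponectin, a hormone made almost wholly by fat cells. In the vehicle arm it stood at 0.0807, 0 and 0 FPKM (replicates 1 to 3), and in the anti-PD-1 arm at 0.229, 0 and 0.0337 FPKM. In the palbociclib arm it stood at 34.6, 0.757 and 2.34 FPKM, and in the combination arm at 102, 1.17 and 0 FPKM. In 5 of the 6 tumors given palbociclib Adipoq exceeded its level in each tumor without the drug, and combination replicate 3 lay among the latter. By arm mean the order was combination (34.3 ± 58.4 FPKM, SD, n = 3), palbociclib (12.6 ± 19.1), anti-PD-1 (0.0874 ± 0.123) and vehicle (0.0269 ± 0.0466). No neighbors in this order differed by more than the larger of their SDs.

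Plin1, Plin4 and Cidec act on the lipid droplet. Plin1, the perilipin that guards the droplet of mature fat cells, was listed at 0 in all 6 tumors without palbociclib. It stood at 3.70, 0.285 and 0.237 FPKM in the palbociclib arm and at 10.4, 0.147 and 0 FPKM in the combination arm. The groups with and without palbociclib met only at 0, through combination replicate 3. Plin4, a perilipin of newly made droplets, stood at 0.0490, 0.00703 and 0 FPKM in the vehicle arm and at 0.0453, 0.00664 and 0.00585 FPKM in the anti-PD-1 arm. Its levels were 6.79, 0.350 and 0.726 FPKM under palbociclib and 5.56, 0.208 and 0.0134 FPKM under the combination. Plin4 was thus higher in palbociclib replicate 1 than in combination replicate 1, the reverse of the order of the other 5 adipocyte-only genes. It shares bases with Hdgfl2 on the opposite strand, and since the strand setting of the counting is not given in the sources used here, reads of the pair cannot be told apart. Cidec, which fuses small droplets into a large one, was at 0 in all tumors without palbociclib except anti-PD-1 replicate 1 (0.0160 FPKM). It stood at 16.8, 0.247 and 0.961 FPKM in the palbociclib arm and at 23.5, 0.446 and 0 FPKM in the combination arm. Both replicates 1 again stood far above the rest.

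Lep and Retn encode the hormones leptin and resistin. Lep was listed at 0 in 9 of the 12 tumors. It was above 0 in palbociclib replicate 1 (0.704 FPKM), palbociclib replicate 3 (0.0345 FPKM) and combination replicate 1 (3.795 FPKM). Lep rested on an estimated 244 fragments over all tumors, the fewest of the adipocyte-only group, and 3 fragments correspond to 0.0441 to 0.0601 FPKM, above its value in palbociclib replicate 3. Retn stood at 0, 0 and 0.0573 FPKM in the vehicle arm and at 0.0911, 0.0712 and 0 FPKM in the anti-PD-1 arm. It stood at 13.2, 0.703 and 1.47 FPKM in the palbociclib arm and at 45.8, 0.779 and 0 FPKM in the combination arm. Its values in 5 of the 6 tumors with palbociclib exceeded all 6 others, as for Adipoq, Plin1, Plin4 and Cidec, while for Lep this held in 3.

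Fabp4 and Lpl are not limited to adipocytes and were above 0 in every tumor. Fabp4, a carrier of fatty acids inside fat cells, macrophages and capillary endothelium, stood at 2.82, 1.24 and 4.395 FPKM in the vehicle arm and at 2.51, 0.813 and 4.72 FPKM in the anti-PD-1 arm. Its levels were 55.75, 4.18 and 7.57 FPKM under palbociclib and 135.5, 3.91 and 1.155 FPKM under the combination. Only 3 of the 6 tumors with palbociclib lay above every tumor without it, and palbociclib replicate 2 and combination replicates 2 and 3 lay within the range of the tumors without the drug. Lpl, which frees fatty acids from blood lipoproteins, stood at 2.335, 1.405 and 0.972 FPKM in the vehicle arm and at 2.18, 1.40 and 1.75 FPKM in the anti-PD-1 arm. It stood at 18.1, 6.70 and 5.42 FPKM in the palbociclib arm and at 50.7, 2.79 and 3.125 FPKM in the combination arm. Lpl was the 1 member whose 6 palbociclib-treated tumors all lay above the 6 others, combination replicate 3 included. Such a separation was found in 1.02% of all genes averaging 0.1 FPKM or more, and since it bears on how the members were selected nothing is read from it. By arm mean Lpl was 18.9 ± 27.6 FPKM (SD, n = 3) in the combination, 10.1 ± 6.996 in palbociclib, 1.78 ± 0.392 in anti-PD-1 and 1.57 ± 0.696 in vehicle. Of the neighbors in that order, palbociclib and anti-PD-1 differed by more than either SD and the others did not.

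Cfd, the complement factor adipsin, was grouped with Fabp4 and Lpl but followed the adipocyte-only genes. It stood at 0.420, 0 and 0 FPKM in the vehicle arm and at 0.509, 0 and 0 FPKM in the anti-PD-1 arm. It stood at 279.7, 10.2 and 24.7 FPKM in the palbociclib arm and at 668, 10.6 and 0.134 FPKM in the combination arm. Cfd was the most abundant member per length in each of the 5 tumors with adipocyte-only transcripts above 2 FPKM in sum. In combination replicate 3 it was under the 0.161 to 0.219 FPKM to which 3 fragments correspond.

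Ucp1, the uncoupling protein of brown fat, was barely seen. It was listed at 0 in all tumors without palbociclib, and at 0.0375 FPKM in palbociclib replicate 1, 0.0818 FPKM in palbociclib replicate 2 and 0.0709 FPKM in combination replicate 2. All of these lay under the 0.0905 to 0.123 FPKM of 3 fragments, and an estimated 4.98 fragments stood behind the gene in all. In combination replicate 1, where the other 9 members were plentiful, Ucp1 was at 0. Levels this low are not told apart from 0 at this depth.

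**Figure D2:**
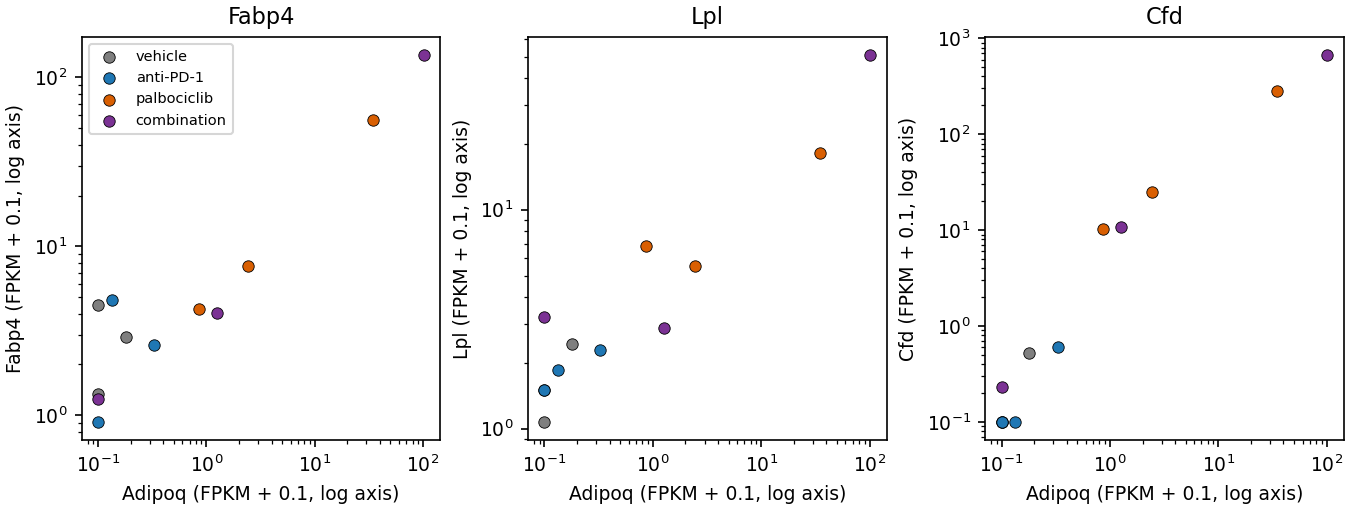
Level of Fabp4, Lpl and Cfd (vertical axes, FPKM + 0.1, log axes) against Adipoq (horizontal axes, FPKM + 0.1, log axes), 1 point per tumor colored by arm. Where Adipoq is near 0, Fabp4 stays at 0.813 FPKM or more and Lpl at 0.972 FPKM or more, while Cfd is at 0 in 4 tumors.

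As a difference between the tumors with and without palbociclib on log2(FPKM + 0.1), again with no test, the members ranged from 0.35 for Ucp1 to 6.96 for Cfd. Adipoq had 4.47, Retn 3.94, Cidec 3.79, Plin4 2.93 and Plin1 2.83, each larger than the spread between tumors of an arm (SD of 1.80 to 2.92 on the same scale). Lep had 1.45 with a spread of 1.73, and Fabp4 had 2.10 with a spread of 2.15, so neither exceeded the spread. Without combination replicate 1 the difference was 0.57 for Lep, 1.11 for Fabp4 and 1.82 for Plin1, and without palbociclib replicate 1 as well it was 0.11, 0.57 and 1.25. All members but Ucp1 averaged 0.1 FPKM or more, and except for Fabp4, Lpl and Cfd they did so through the tumors with palbociclib alone. Lpl had 2.28 with the narrowest spread of the abundant members, 1.30.

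The members did not keep a single ratio to Adipoq. FPKM is scaled by gene length, so levels of different genes can be set beside each other in the 4 tumors with Adipoq above 1 FPKM. Per FPKM of Adipoq, Plin1 was nearly constant in these 4. It was 0.107 in palbociclib replicate 1, 0.101 in palbociclib replicate 3, 0.102 in combination replicate 1 and 0.126 in combination replicate 2. Palbociclib replicate 2, under that cut, held 0.285 FPKM of Plin1 beside 0.757 FPKM of Adipoq, a higher ratio than in the 4. Those levels rest on an estimated 19.7 and 15.5 fragments. Cfd ranged from 6.57 in combination replicate 1 to 10.6 in palbociclib replicate 3. Fabp4 per FPKM of Adipoq was 1.61 in palbociclib replicate 1 and 1.33 in combination replicate 1 but 3.24 and 3.355 in palbociclib replicate 3 and combination replicate 2. Lpl showed the same split, with 0.524 and 0.4985 in both tumors high in fat genes against 2.32 and 2.395 in the others. Plin4 per FPKM of Adipoq was lowest in combination replicate 1 (0.0547) and highest in palbociclib replicate 3 (0.310).

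Both tumors with the highest levels came from different arms and differed in proportion from gene to gene. Levels in combination replicate 1 over those in palbociclib replicate 1 were 2.94 for Adipoq, 2.81 for Plin1, 2.80 for Lpl, 2.43 for Fabp4, 2.39 for Cfd and 3.46 for Retn. Lep had a ratio of 5.39, while Cidec had 1.40 and Plin4 0.819. Among fat genes outside the set, named here after their values were seen, high ratios were found for the lipogenic genes Thrsp (8.33), Dgat2 (5.26) and Scd1 (3.69). Of the other genes of fatty acid and triglyceride synthesis, only Me1 (3.58) and Gpd1 (3.24) exceeded the ratio of Adipoq. The rest lay under it, Fasn (2.19), Acly (2.19) and Scd2 (1.69) included. Low ratios were found for Pck1, which makes glycerol for triglyceride in fat cells (0.710), and for the plasma protein gene Hp (0.561). With 1 tumor on each side, these ratios have no replicate check.

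**Figure D3:**
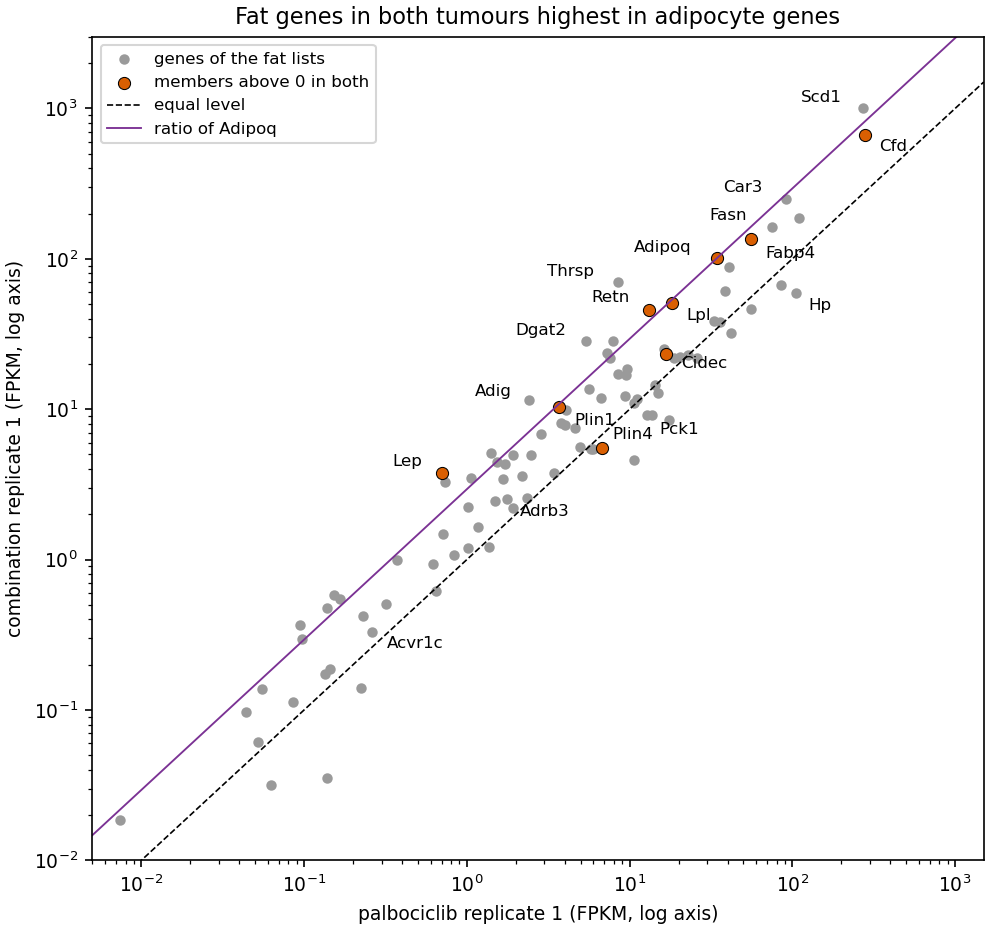
Level of each fat gene in combination replicate 1 (vertical axis, FPKM, log axis) against palbociclib replicate 1 (horizontal axis, FPKM, log axis), with the 9 members above 0 in both in orange, a dashed line of equal level and a solid line at the ratio of Adipoq (2.94). Lep, Thrsp and Dgat2 lie above the solid line, and Plin4, Pck1 and Hp lie below the dashed line.

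Genes outside the set whose profile over the 12 tumors was most like the mean of the adipocyte-only group were then sought. Likeness was measured as the root mean square difference of the centred log2(FPKM + 0.1) profiles. It was taken for the 11179 genes outside the set averaging 1 FPKM or more, whose median was 2.43. The closest was Ephx2, an epoxide hydrolase of fatty acid epoxides, at 0.289. Also among the 10 closest were the carboxylesterase Ces1d (0.557), Pck1 (0.579), Gpd1, which makes glycerol phosphate (0.647), the adipogenin gene Adig (0.657), Cdo1, a cysteine dioxygenase (0.712), Thrsp (0.773), Cyp2e1, a cytochrome P450 (0.888), and Orm1, an acute-phase protein (0.9455). Each of the 10 stood at 0.760 FPKM (Cdo1) or less in every tumor without palbociclib. All 10 thus reached the average of 1 FPKM only through tumors given palbociclib, so these likenesses are a description. Among the members themselves, Plin1 (0.380), Cidec (0.427) and Plin4 (0.482) were nearest to the group mean of which they are part. Fabp4 stood at 0.857, Lpl at 1.06, Cfd at 2.25 and Ucp1 at 2.37 by the same measure, which also grows with the size of a gene's swing.

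Ephx2 was picked for its nearness to the group mean, so its likeness follows from that choice and its levels are a description. It stood at 12.1 FPKM in combination replicate 1, 7.27 FPKM in palbociclib replicate 1, 0.564 FPKM in palbociclib replicate 3, 0.143 FPKM in combination replicate 2 and 0.198 FPKM in palbociclib replicate 2. It was at 0 in combination replicate 3 and at most 0.0514 FPKM in the tumors without palbociclib. Ephx2 thus reached the average of 1 FPKM only through tumors given palbociclib. The 3 highest tumors came in the same order as for the adipocyte-only group, and the next pair, nearly level in that group, was exchanged.

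Other genes of fat biology were then tested in a fit over all genes. The palbociclib effect was taken as the mean of palbociclib minus vehicle and combination minus anti-PD-1, on log2(FPKM + 0.1), with limma and Benjamini-Hochberg adjustment over 15350 genes. Of 89 fat genes in 8 lists, none of them a member, 74 were tested and 0 passed an adjusted p of 0.05, against 0.313% of all genes tested (48, of which 38 were higher and 10 lower). At an unadjusted p under 0.05, 19 of the 74 were higher (25.7%, against 14.1% of all genes) and 6 were lower (8.11%, against 6.44%). These shares are a description, since 12 of the 74 (16.2%, against 3.51% of all genes) averaged under 0.1 FPKM without palbociclib and so entered the fit through the palbociclib-treated tumors. Those 12 held 6 of the 19, and among the other 62 the higher share was 20.97%, against 13.7% of all such genes. For the 74, the median difference was 0.35 on the log2 scale, beside 0.055 over all genes, and 51 of the 74 were positive (68.9%, against 59.8%). The median was 0.19 without combination replicate 1. Without palbociclib replicate 1 and combination replicate 1, 65 fat genes were tested, of which 8 were higher at an unadjusted p under 0.05 (12.3%, against 11.6% of all genes) and 7 were lower (10.8%, against 5.19%). The median of these 65 genes was 0.31 with all tumors and 0.045 without both.

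**Figure D4:**
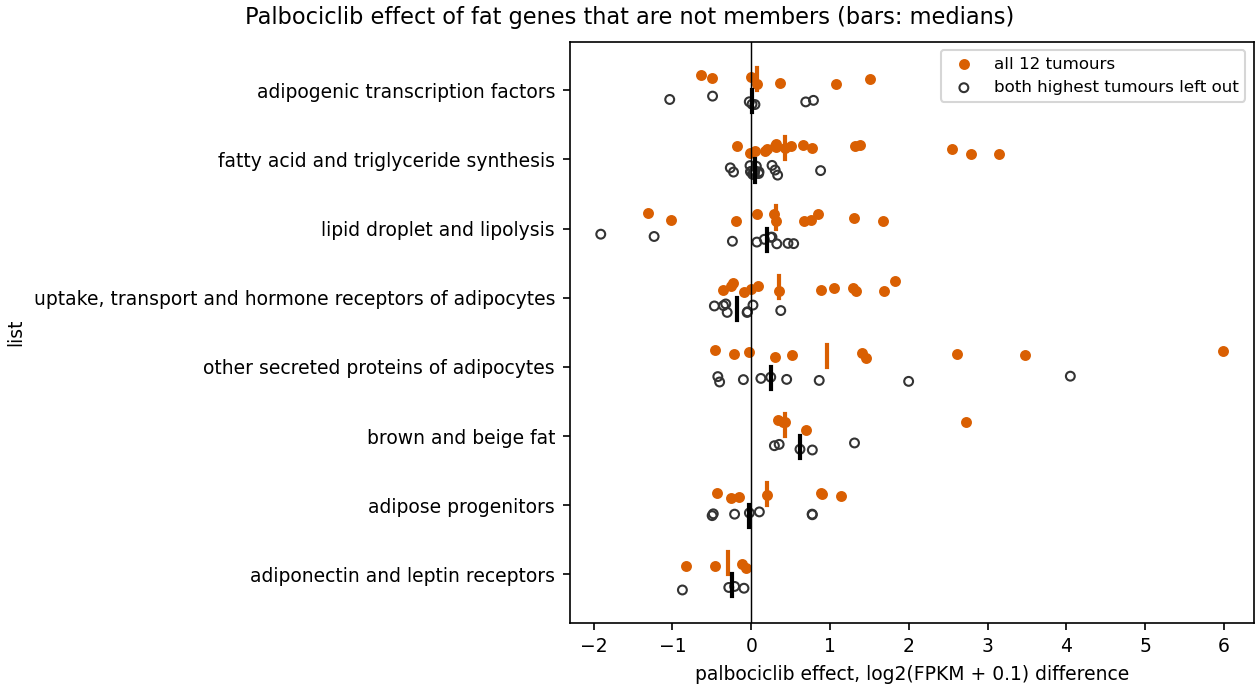
Palbociclib effect (horizontal axis, difference in log2(FPKM + 0.1)) of each tested fat gene outside the set, by list, with all 12 tumors (filled points) and with both tumors highest in adipocyte genes left out (open circles); bars mark medians. Over the 65 genes tested in both fits the median is 0.31 with all tumors and 0.045 with both left out.

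Genes of fatty acid and triglyceride synthesis were positive in 15 of 17 (88.2%, against 59.8% of all genes), with a median of 0.42 and 3 higher at an unadjusted p under 0.05 (17.6%, against 14.1%). Of the 17, Thrsp and Pck1 averaged under 0.1 FPKM without palbociclib and so entered the fit through the treated tumors. Among the other 15, 2 were higher (13.3%, against 13.7% of all such genes). Scd1, a fatty acid desaturase, stood between 37.7 and 61.3 FPKM in the tumors without palbociclib, at 272.8, 66.3 and 47.6 FPKM in the palbociclib arm and at 1007, 62.4 and 57.6 FPKM in the combination arm. Its difference of 1.32 ± 0.67 (SE, log2) did not pass (limma, adjusted p = 0.285). Fasn, fatty acid synthase, had 0.66 ± 0.27 (limma, adjusted p = 0.205), and Acly, which supplies its acetyl-CoA, had 0.31 ± 0.20 (limma, adjusted p = 0.386). Scd2, a sister desaturase, had 0.042 ± 0.18 (limma, adjusted p = 0.9145). Scd1 was highest in the same pair of tumors as the members, over a base present in every tumor.

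Among other secreted proteins, 7 of 10 were positive (70%, against 59.8% of all genes). At an unadjusted p under 0.05, 4 were higher (40%, against 14.1%), of which 3 (Car3, Orm1 and Adig) averaged under 0.1 FPKM without palbociclib. Among the other 7, 1 was higher (14.3%, against 13.7% of all such genes). Car3, a carbonic anhydrase abundant in fat and muscle, had the largest difference of the fat lists, 5.98 on the log2 scale. The value is given with no test, since Car3 entered the fit through the palbociclib-treated tumors. Car3 stood at 90.8, 1.75 and 7.395 FPKM in the palbociclib arm and at 251, 8.28 and 0.365 FPKM in the combination arm, and at most 0.295 FPKM in the tumors without palbociclib. All 6 tumors with palbociclib lay above the 6 others, as in 1.02% of all genes tested, and nothing is read from this. Nampt had a difference of -0.030 ± 0.12, Rbp4 of -0.22 ± 0.23 and Apln of -0.46 ± 0.21 on the log2 scale (limma, adjusted p = 0.906, 0.603 and 0.244).

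The lipid droplet and lipolysis list was positive in 8 of 11 (72.7%, against 59.8% of all genes), with a median of 0.31. At an unadjusted p under 0.05, 5 were higher (45.5%, against 14.1%) and 1 was lower (9.09%, against 6.44%). Of the 11, 1 (Cidea) averaged under 0.1 FPKM without palbociclib. Among the other 10, 5 were higher (50%, against 13.7% of all such genes). Plin2 and Plin3, the perilipins that most cells carry, had differences of -0.20 ± 0.12 and 0.078 ± 0.10 (SE, log2; limma, adjusted p = 0.3795 and 0.6955). Hilpda, a lipolysis inhibitor switched on by low oxygen, had -1.31 ± 0.36 (limma, adjusted p = 0.110), and Abhd5, the co-activator of the lipase ATGL, had 0.31 ± 0.092 (limma, adjusted p = 0.123). Unlike Plin1 and Plin4, Plin2 stood no higher in palbociclib replicate 1 (42.1 FPKM) and combination replicate 1 (32.01 FPKM) than its highest level without palbociclib (52.3 FPKM).

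The transcription factors that make fat cells were split. Pparg had a difference of 1.502 ± 0.51 (SE, log2; limma, adjusted p = 0.152) and stood at 1.725, 0.535 and 0.946 FPKM in the palbociclib arm, at 4.29, 0.323 and 0.506 FPKM in the combination arm and at 0.192 to 0.391 FPKM without the drug. Cebpa had 1.07 ± 0.41 (limma, adjusted p = 0.183), and Cebpb had -0.64 ± 0.25 (limma, adjusted p = 0.189). Srebf1 and Cebpd had -0.0064 ± 0.13 and 0.069 ± 0.19 on the log2 scale (limma, adjusted p = 0.983 and 0.862). No gene of this list passed the adjusted test.

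Uptake, transport and hormone receptor genes of adipocytes were positive in 8 of 13 (61.5%, against 59.8% of all genes), with a median of 0.35. Of the 13, 4 (Slc2a4, Aqp7, Adrb3 and Slc7a10) averaged under 0.1 FPKM without palbociclib. Cd36, a fatty acid transporter shared with macrophages and endothelium, had 1.04 ± 0.46 (SE, log2; limma, adjusted p = 0.236), and the insulin receptor gene Insr had -0.26 ± 0.11 (limma, adjusted p = 0.2245). Slc27a1 and Angptl4 had 0.080 ± 0.13 and -0.23 ± 0.30 (limma, adjusted p = 0.7575 and 0.684). Adipose progenitor genes were positive in 4 of 7 (57.1%, against 59.8% of all genes). Ly6a, the Sca-1 antigen of progenitors and vessels, had 0.89 ± 0.28 and Pdgfra, a receptor of fibroblasts and fat precursors, had -0.44 ± 0.15 (limma, adjusted p = 0.135 and 0.147).

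Brown and beige fat genes other than Ucp1 were low. Of 10 listed, 5 reached a mean of 0.1 FPKM. All 5 had positive differences (100%, against 59.8% of all genes), and the median was 0.42. Cox8b, a mitochondrial subunit of brown fat and muscle, stood at 4.09, 0 and 1.33 FPKM in the palbociclib arm, at 9.83, 0.805 and 0 FPKM in the combination arm and at 0 in all tumors without palbociclib except vehicle replicate 1 (0.535 FPKM). Like Tmem26 of the same list, Cox8b averaged under 0.1 FPKM without palbociclib, and its difference of 2.73 on the log2 scale is given with no test. Cox7a1 had 0.42 ± 0.29 and Elovl3 0.69 ± 0.49 (SE, log2; limma, adjusted p = 0.423 and 0.438).

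The receptors of the hormones in the set were present. Adipor1 and Adipor2, receptors of adiponectin, had differences of -0.12 ± 0.055 and -0.067 ± 0.16 (SE, log2; limma, adjusted p = 0.249 and 0.842). Cdh13, T-cadherin, which binds adiponectin on vessels, had -0.83 ± 0.20 (limma, adjusted p = 0.0836), and Lepr, the leptin receptor, had -0.46 ± 0.24 (limma, adjusted p = 0.304). All 4 differences were negative, beside 59.8% positive over all genes, and 1 was lower at an unadjusted p under 0.05 (25%, against 6.44%).

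The single comparisons with vehicle share the vehicle tumors, so their values are given side by side. Palbociclib versus vehicle called 0 of the 74 fat genes (limma; 0.143% of all genes), with 3 higher and 3 lower at an unadjusted p under 0.05 (4.05% each, against 9.43% and 4.36% of all genes) and a median of 0.31. Combination versus vehicle called 0 (0.013% of all genes), with 5 higher and 4 lower (6.76% and 5.41%, against 8.64% and 8.31%) and a median of 0.44, which was -0.054 without combination replicate 1 and -0.067 without both tumors highest in adipocyte genes. Anti-PD-1 versus vehicle called 0 (0% of all genes), with 2 higher and 4 lower (2.70% and 5.41%, against 3.28% and 5.11%) and a median of -0.017. The anti-PD-1 arm also held the adipocyte-only genes at the levels of the vehicle arm, with sums of 0.0396 to 0.381 FPKM beside 0.00703 to 0.130 FPKM.

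Markers of muscle and epidermis were highest in other tumors than the adipocyte genes. The small sebaceous gland list was highest by its mean log2 level in the same pair, through Scd3 and Mc5r. Skeletal muscle markers (Ckm, Acta1, Myh1, Myh4, Mylpf and Tnnt3) summed to 164 FPKM in palbociclib replicate 3, 149.7 FPKM in combination replicate 2 and 54.1 FPKM in vehicle replicate 1. In both tumors highest in adipocyte genes the muscle sum was 1.42 FPKM (palbociclib replicate 1) and 0.859 FPKM (combination replicate 1). Epidermis and hair follicle markers summed to 369 FPKM in palbociclib replicate 2 and to at most 1.12 FPKM in the other 11 tumors. The sebaceous gland list (Scd3, Awat2, Soat1 and Mc5r) had a mean log2(FPKM + 0.1) of 0.27 in combination replicate 1 and 0.0996 in palbociclib replicate 1, and of -0.91 to -0.47 in the other 10 tumors. Of this list Mc5r, a melanocortin receptor, was at 0 in every tumor without palbociclib and at 0.161 and 0.212 FPKM in those replicates. Scd3 stood at 0.756 and 0.284 FPKM in them and at most 0.136 FPKM in any other tumor. Awat2 was highest in palbociclib replicate 2 (0.710 FPKM) and Soat1 in vehicle replicate 3 (17.1 FPKM). The sum of the list, carried by Soat1, was 12.5 to 17.6 FPKM throughout. Of the mammary milk genes, Csn2 and Wap were at 0 in all 12 tumors, Lalba was above 0 in 8 (at most 0.214 FPKM) and Csn3 was above 0 in all 12 (1.405 to 10.2 FPKM, highest in a tumor without palbociclib). Of the 5 tumors with more than 2 FPKM of adipocyte-only transcripts in sum, 3 thus also held a high level of muscle or epidermal markers, and the part of tissue taken with the tumor in the levels of the members was not tested.

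**Figure D5:**
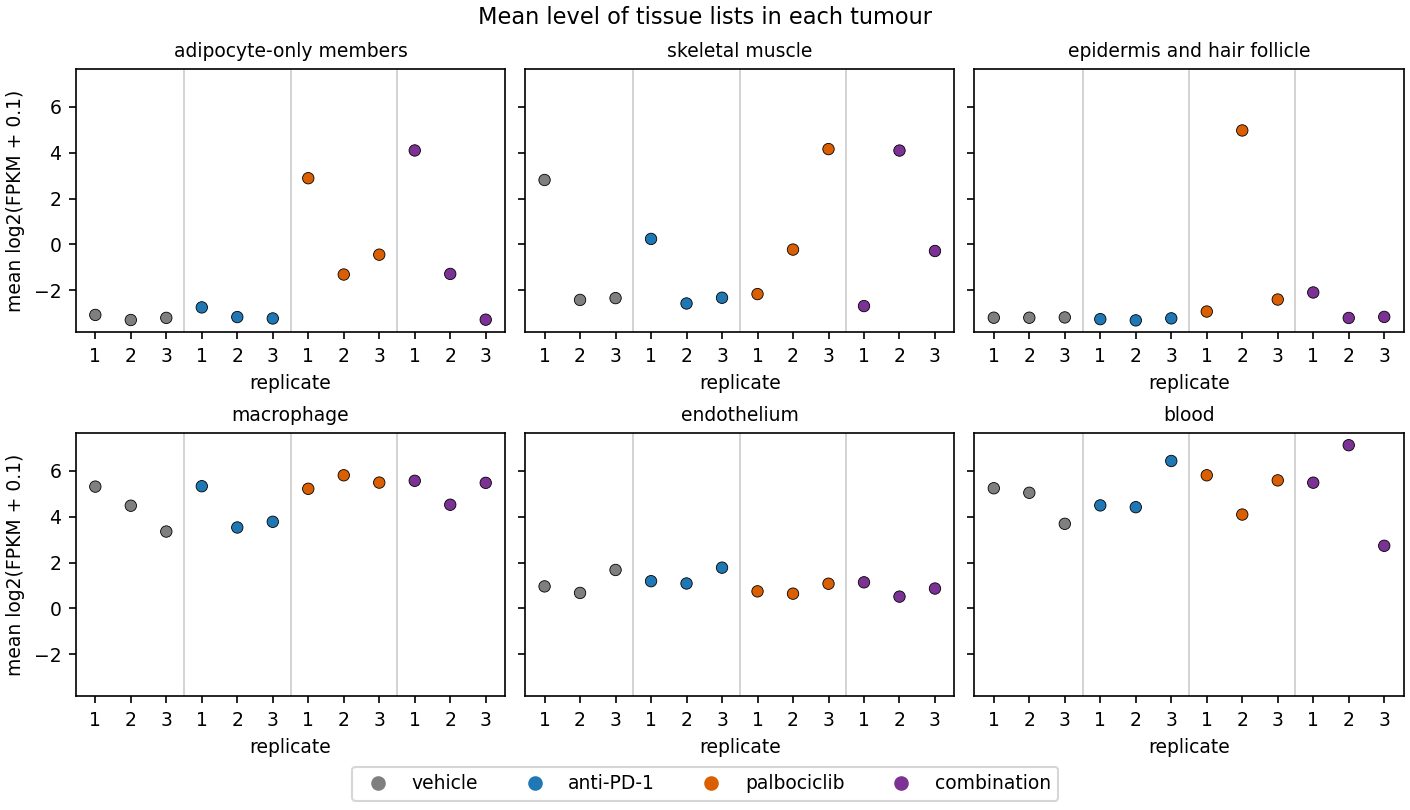
Mean log2(FPKM + 0.1) of 6 marker lists (1 panel each, vertical axes) in each of the 12 tumors (horizontal axes, replicates by arm, colored by arm). The adipocyte-only genes peak in combination replicate 1 (4.10) and palbociclib replicate 1 (2.89), skeletal muscle in palbociclib replicate 3 (4.16) and combination replicate 2 (4.10), and epidermis in palbociclib replicate 2 (4.97).

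Macrophages and endothelium can themselves carry Fabp4 and Lpl. All 6 macrophage markers (Adgre1, Csf1r, Cd68, Mrc1, Fcgr1 and C1qa) had a positive palbociclib effect (against 59.8% of all genes), with a median of 1.17 on the log2 scale. Limma called 0 of them, against 0.313% of all genes. At an unadjusted p under 0.05 (limma), Adgre1, Csf1r, Fcgr1 and C1qa were higher and Cd68 and Mrc1 were not, against 14.1% of all genes higher. The macrophage sum was 214 to 491 FPKM in the palbociclib-treated tumors and 80.0 to 372 FPKM in the others. It was 433 FPKM in combination replicate 3, where Lpl stood at 3.125 FPKM and the adipocyte-only genes at 0.0134 FPKM in sum. Endothelial markers were split: Pecam1, Cdh5, Cldn5 and Emcn had negative effects (-0.62, -0.73, -0.93 and -0.59) and Kdr and Tek positive ones (0.25 and 0.23). Their median effect was -0.61, and their sum was 11.95 to 17.4 FPKM with palbociclib and 17.2 to 39.2 FPKM without it. The part of these cells in the levels of Fabp4 and Lpl was not tested.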

How the data were processed

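RNA from 12 tumors was sequenced by the authors, who deposited 1 table of FPKM values per tumor for 34745 entries. The submitters' processing notes name HISAT2, GRCm38 and mm10. The counting tool, annotation and strand setting are not given in the sources used here. Of 67 repeated symbols, the entry with the highest mean was kept. Fragments per tumor were estimated from the steps of low FPKM and GENCODE M21 exon lengths, and limits from 3 fragments cover counting error only.

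The 15350 genes averaging 0.1 FPKM or more over the tumors were fitted on log2(FPKM + 0.1), which understates changes of low genes, with limma 3.58.1 in R 4.3.3 (1 mean per arm, eBayes with a trend, Benjamini-Hochberg, threshold 0.05). The script was tested on simulated data. Alternatives were pseudocounts of 1 and 0.01, other filters, TPM, quantile scaling, eBayes with no trend, a replicate block, leaving out each tumor and, added once the data had been seen, leaving out palbociclib replicate 1 and combination replicate 1.

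The members, lists and rule for named genes were chosen with earlier results of these data known. The rule named all members, up to 4 genes with the highest mean FPKM in each list and the 10 nearest profiles, of which 1 is not reported here. Pparg, Dgat2, Me1, Hp and Fitm2 lie outside it and were picked once their values were known. The 3 tumors of an arm were taken as biological replicates, as the study's methods state for its samples. Promoters came from RefSeq, with none for Fabp4 and Lpl.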

Additional observations from a re-analysis of the deposited data

How the results depend on the processing

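The count of fat genes called in the palbociclib effect stayed at 0 in 18 of 21 alternatives. It was 1 with a replicate block (Car3) and ranged from 0 to 5 when 1 tumor was left out: 5 without vehicle replicate 1 (Abhd5, Fitm2 and Car3 higher, Hilpda and Cdh13 lower) and 3 without anti-PD-1 replicate 1 (Car3 higher, Hilpda and Cdh13 lower). Car3 averaged under 0.1 FPKM without palbociclib and entered the fit through the treated tumors, so nothing is read from its calls. In the other 3 comparisons the count of fat genes called was 0 in all 21. Calls over all genes moved more. The 48 of the palbociclib effect became 11 with every gene above 0 kept, 0 with no trend, 129 with the replicate block, 0 without both tumors highest in adipocyte genes, and 0 to 772 with 1 tumor left out (695 without vehicle replicate 1, 772 without anti-PD-1 replicate 1). The 22 of palbociclib versus vehicle became 1 with quantile scaling, 6 with no trend, 51 with the block, 4 without both tumors and 1 to 56 with 1 left out. The 0 of anti-PD-1 versus vehicle became 1 with every gene above 0 kept, 2 with TPM and 0 to 1 with 1 left out. The 2 of combination versus vehicle became 5 with a pseudocount of 0.01, 1 with TPM, no trend or the block, 0 without both tumors and 0 to 5 with 1 left out. The cause was not tested. The member differences stayed positive. They moved by under 1 SD of the tumors of an arm, a wide measure here, in 167 of 170 recomputed values, with Lep between 0.57 and 1.89 and Fabp4 between 1.11 and 2.80 when 1 tumor was left out, the exceptions being Plin1 (5.34) and Ucp1 (1.41) with a pseudocount of 0.01 and Ucp1 with TPM (0.86). Replicate numbers were not taken as pairs, since same-numbered pairs correlated from -0.21 to 0.45, although 6 of 12 tumors correlated best with their own number, a hint from the data and not from the design.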
